A study of Homo sapiens with 14 samples.

Results

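The transcriptomes of U2OS cells treated with SAHA and with VPA, 2 inhibitors of histone deacetylases, were set against each other directly. The members were the SAHA library and the VPA library of the replicate 1 table, 2 of 14 libraries in all, which the rule takes by label; the comparison itself was chosen with earlier results of these data known. U2OS is an established human osteosarcoma line. Per the labels, SAHA was given at 1 μM and VPA at 20 μM, both for 24 h; the unit of the SAHA time is in the treatment protocol alone. The doses differ, so the values stand side by side and describe these treatments, not the compounds at matched dose. The DMSO library of the same table (solvent at 0.5% by volume, with no time of its own in the labels) gave the baseline. The other 7 libraries of that table gave a range for each gene: GSK343 (10 μM), BRD4770 (20 μM), UNC1215 (50 μM) and rapamycin (5 μM) at 24 h, and 2-PCPA (1 mM), GSK-J4 (20 μM) and BIX-01294 (5 μM) at 12 h.

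Histone deacetylases remove acetyl groups from lysines of histone tails and of many other proteins, and work in corepressor complexes such as SIN3, NuRD and CoREST, the last of which is recruited to neuronal genes by the repressor REST. Their inhibition raises histone acetylation and shifts transcription in both directions. SAHA (vorinostat) is a hydroxamate, whose hydroxamic acid group binds the catalytic zinc of class I and class II deacetylases. VPA (valproic acid) is a branched short-chain fatty acid, long used as an anticonvulsant, that inhibits class I deacetylases and is usually applied to cells at millimolar concentrations. The labelled VPA dose is far below that range, and whether its unit is right could not be checked.

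Each compound had 1 library, so no test was possible and no p-value is given. Differences are SAHA minus VPA in log2(FPKM + 1), where FPKM is fragments per kilobase of transcript scaled to library size, and they understate the change of genes near or below 1 FPKM. The value after ± is the error of a difference between 2 libraries, taken for each gene from the 4 groups with replicates (DMSO, 2-PCPA, GSK343 and rapamycin, 3 residual degrees of freedom). SAHA and VPA do not enter it, and nothing in the labels states whether replicate libraries came from separate cultures. Its median over 12058 genes was 0.33. Absolute depth is unknown. Depth relative to the DMSO library was 1.23 for SAHA, the deepest of the table, and 1.11 for VPA, against 0.554 to 1.06 for the other compounds. The 2-PCPA library, used here only in ranges and errors, stood apart, with a median log2 level of 2.94 against 3.30 to 3.52 in the other 9 libraries. In bulk RNA, fewer cells of a type and less RNA per cell cannot be told apart. Vimentin (VIM), a mesenchymal filament protein, had 950 FPKM with SAHA, 851 FPKM with VPA and 739 FPKM with DMSO. Of 6 blood cell markers, 0 reached a mean of 1 FPKM. Epithelial markers were mixed: the cadherin CDH1 was under that level, but 3 of 7 reached it, the keratins KRT8 and KRT18 and claudin 4. KRT8 had 602 FPKM with SAHA, 411 FPKM with VPA and 523 FPKM with DMSO, and KRT18 had 341, 259 and 261 FPKM. Of 13 osteoblast and mesenchymal markers, 7 reached the mean of 1 FPKM, while the osteoblast genes ALPL, SP7, BGLAP and IBSP did not.

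SAHA and VPA left the cells with different levels of a limited set of genes, and more of that distance lay between SAHA and DMSO than between VPA and DMSO. Of the 12804 genes that averaged 1 FPKM or more across the 10 libraries, 841 (6.57%) were at least 1 log2 higher with SAHA than with VPA and 606 (4.73%) at least 1 log2 lower, 11.3% in either direction. At 2 log2, 140 genes were higher and 71 lower. The average includes SAHA and VPA, so a gene low elsewhere can enter through either value alone, which favours a difference. The median difference was 0.05, and 62.9% of genes lay within 0.5 log2. Among genes past 1 log2, 58.1% were higher with SAHA. After rescaling each library to a fixed sum (TPM), which moved the median of all genes by -0.13 to -0.08, 764 were higher and 1000 lower, 43.3% higher. The split between directions therefore depends on the scale. Of all genes with an error, 25.9% differed by more than 2 times that error. With 3 residual degrees of freedom each gene's error is itself imprecise, so part of these genes would pass that mark with no difference. How large a part was not estimated. Small RNA and clone rows made up 251 of the genes past 1 log2.

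**Figure D1:**
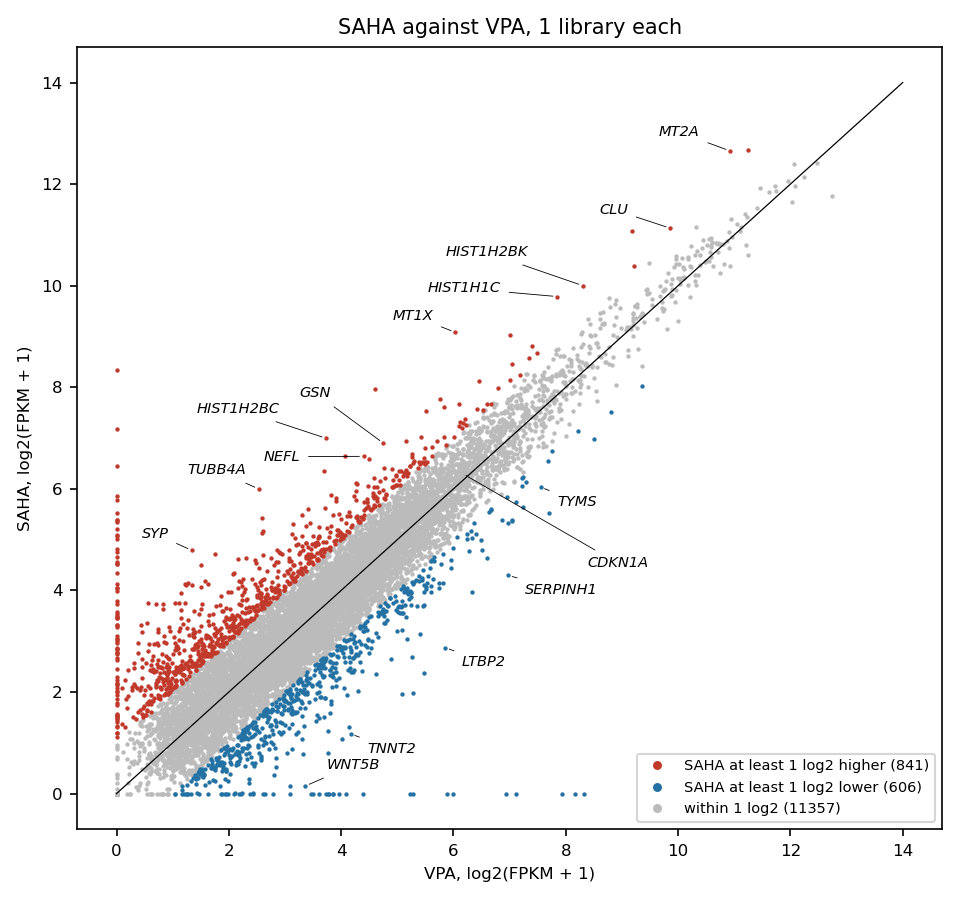
Level of each of 12804 genes with SAHA (vertical axis) against VPA (horizontal axis), both log2(FPKM + 1), 1 library each. The line marks equal levels, 841 red points lie at least 1 log2 above it and 606 blue points at least 1 log2 below it.

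Against DMSO, 997 genes (7.79%) were at least 1 log2 higher and 491 (3.83%) at least 1 log2 lower with SAHA, while 360 (2.81%) were higher and 203 (1.59%) lower with VPA. Both counts share the same DMSO library. Of the 841 genes higher with SAHA than with VPA, 526 were at least 1 log2 higher with SAHA than in DMSO and 67 at least 1 log2 lower with VPA than in DMSO. In 253 neither compound was that far from DMSO in the direction of the difference. Of the 606 genes lower with SAHA than with VPA, 288 were at least 1 log2 lower with SAHA than in DMSO, 105 at least 1 log2 higher with VPA than in DMSO, and 220 neither.

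Among all 45 pairs of the 10 libraries, SAHA and VPA ranked 18th from the closest by the number of genes past 1 log2. VPA lay nearer to several compounds with other targets than to SAHA. It differed by 1 log2 or more from rapamycin at 331 genes (2.59%), the fewest of any pair, from GSK343 at 480, from DMSO at 563 and from UNC1215 at 578. SAHA was 1488 genes (11.6%) away from DMSO and 1407 away from UNC1215, the library closest to it. VPA was the highest of the 10 libraries for 5.98% of all genes and the lowest for 3.19%, and SAHA the highest for 18.4% and the lowest for 9.54%. Without the 2-PCPA library the shares at the low end were 5.51% for VPA and 14.1% for SAHA. Across genes, Pearson's r of log2 levels was 0.92 between SAHA and VPA and 0.96 between VPA and rapamycin, and genes are not independent replicates.

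**Figure D2:**
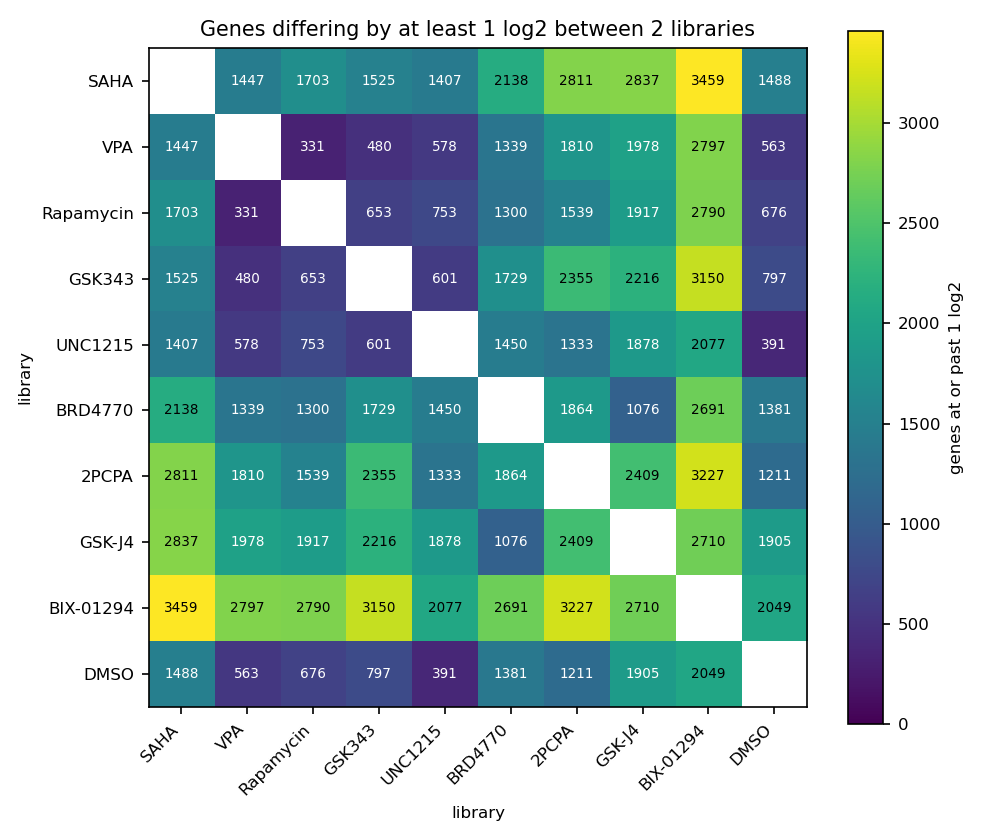
Number of genes at least 1 log2 apart for each pair of libraries of the replicate 1 table, libraries on both axes, with the count printed and coloured in each cell. The SAHA and VPA pair stands at 1447 genes, and the VPA and rapamycin pair at 331.

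Genes that deacetylase inhibitors often raise were higher with SAHA than with VPA almost throughout, with medians against DMSO of 1.24 for SAHA and 0.17 for VPA. Of 28 such genes, 23 reached a mean of 1 FPKM. The difference was above 0 in 22 of these 23, against 53.6% of all genes, and at least 1 log2 in 9 of 23, against 6.57% of all genes. The list's median was 0.94 ± 0.40, against 0.05 for all genes, and 0.75 to 0.94 over the scalings tried. Against DMSO, 13 of the 23 were at least 1 log2 higher with SAHA (7.79% of all genes), while 1, the arrestin gene TXNIP, was at least 1 log2 higher with VPA (2.81% of all genes). VPA also lay above DMSO by 0.96 for CRIP2, 0.71 for GLRX and 0.57 for SERTAD1. SAHA was the highest of the 10 libraries in 15 of the 23, against 18.4% of all genes.

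**Figure D3:**
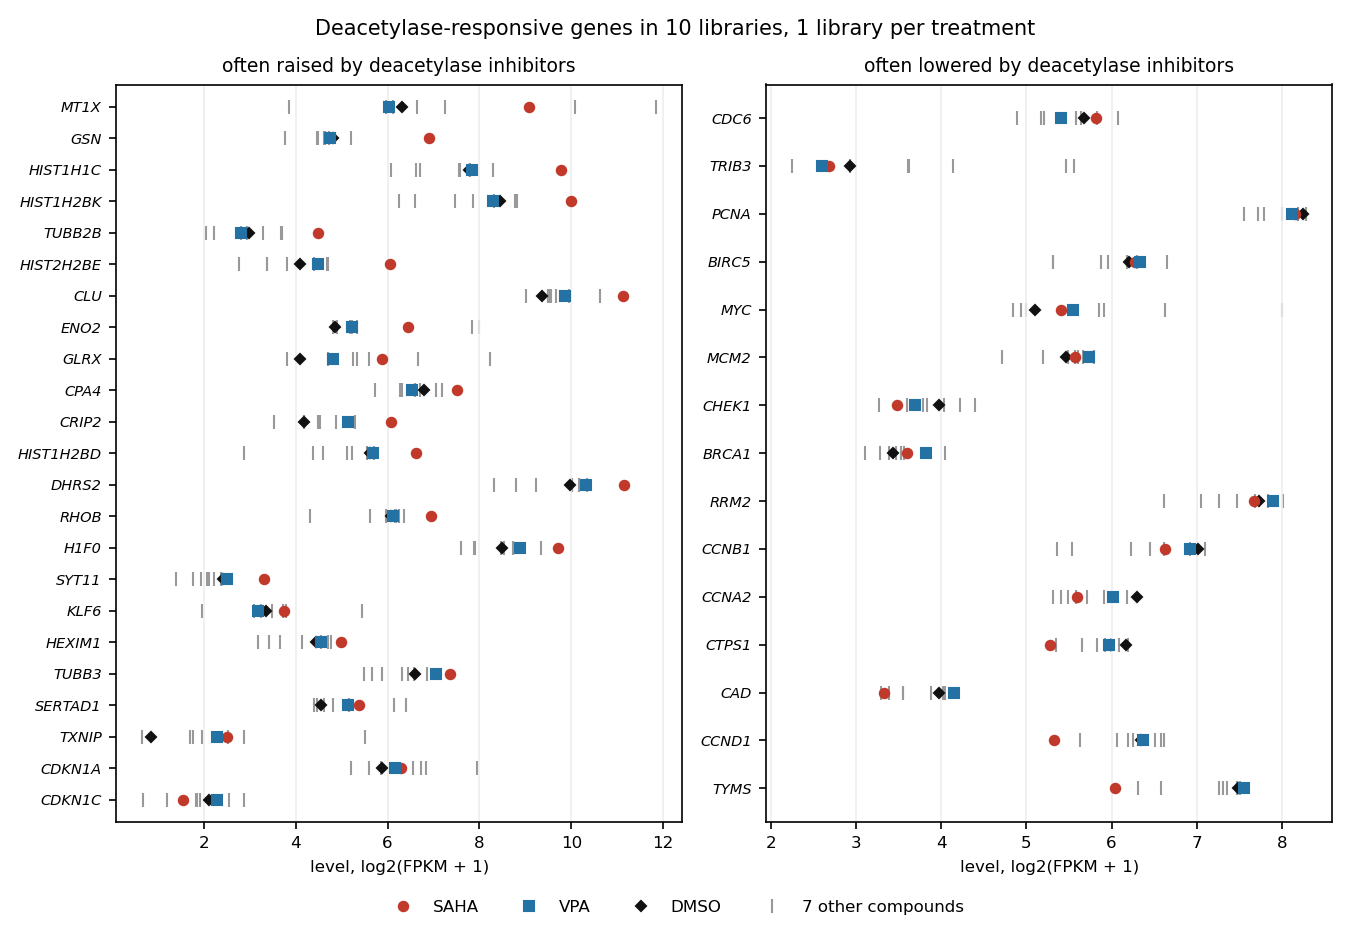
Level in log2(FPKM + 1) of the genes that deacetylase inhibitors often raise or lower, with SAHA, VPA and DMSO as separate symbols and the other 7 compounds as ticks. SAHA was the highest of the 10 libraries in 15 of 23 genes of the raised list, and the lowest for TYMS, CCND1 and CTPS1 of the lowered list.

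Gelsolin (GSN), an actin-severing protein and a classical marker of deacetylase inhibition, had 119 FPKM with SAHA, 25.9 FPKM with VPA and 27.2 FPKM with DMSO, and 12.6 to 36.0 FPKM (median 23.5) with the other 7 compounds. The difference was 2.16 ± 0.59, and SAHA alone lay outside the range of the rest. Clusterin (CLU), a secreted chaperone, had 2244 FPKM with SAHA, 927 FPKM with VPA, 662 FPKM with DMSO and 513 to 1573 FPKM with the other compounds (1.28 ± 0.39). DHRS2, a short-chain dehydrogenase, had 2274, 1273 and 1003 FPKM with SAHA, VPA and DMSO (0.84 ± 0.33). For CLU and DHRS2 the VPA value also lay above DMSO, by 0.49 and 0.34. The linker histone gene H1F0, typical of non-dividing cells, had 843 FPKM with SAHA, 474 FPKM with VPA and 357 FPKM with DMSO (0.83 ± 0.52), the same order.

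CDKN1A, the p21 inhibitor of cyclin-dependent kinases and the most cited target of these drugs, did not separate them. It had 77.9 FPKM with SAHA, 70.4 FPKM with VPA and 57.9 FPKM with DMSO, and 35.9 to 244 FPKM (median 92.7) with the other compounds. The difference was 0.14 ± 0.52, and all 3 values lay inside the range of the rest. TXNIP, which binds thioredoxin, was also close between the compounds at 4.63 FPKM with SAHA and 3.89 FPKM with VPA, but both stood above the 0.788 FPKM of DMSO, by 1.66 and 1.45. CDKN1C, the p57 inhibitor, was the gene of the list that was lower with SAHA, at 1.93 FPKM against 3.85 FPKM with VPA (-0.73 ± 1.03), a difference within its error.

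Of the rest of the list, glutaredoxin (GLRX, 1.07), the neuronal enolase ENO2 (1.22) and the tubulin TUBB2B (1.69) were past 1 log2, besides MT1X and the histone genes described below. CPA4 (0.98), CRIP2 (0.95), the GTPase gene RHOB (0.83), SYT11 (0.80), KLF6 (0.57), HEXIM1 (0.45), TUBB3 (0.31) and SERTAD1 (0.24) had smaller differences above 0. Another 5 members, KLF4, CDKN2B, CRIP1, STMN4 and HSPA2, were under a mean of 1 FPKM.

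Genes that deacetylase inhibitors often lower, mostly for nucleotide synthesis and cell division, showed a smaller shift. All 17 were measured, the median was -0.23 ± 0.31, and the difference was below 0 in 14 of 17, against 45.6% of all genes. Thymidylate synthase (TYMS), which makes dTMP, had 64.5 FPKM with SAHA, 187 FPKM with VPA and 177 FPKM with DMSO, and 78.0 to 181 FPKM with the other compounds (-1.52 ± 0.49). Cyclin D1 (CCND1) had 38.9 FPKM with SAHA, 81.3 FPKM with VPA and 80.1 FPKM with DMSO (-1.05 ± 0.47). In both, VPA was level with DMSO and SAHA was the lowest of the 10 libraries. CTP synthase CTPS1 (-0.70 ± 0.41) was likewise lowest with SAHA. The pyrimidine enzyme CAD was at -0.82, cyclin A2 (CCNA2) at -0.43, and CCNB1, BRCA1, CHEK1, RRM2, MCM2, MYC and BIRC5 between -0.29 and -0.06. PCNA (0.04), TRIB3 (0.07) and CDC6 (0.41) were above 0.

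Replication-dependent histone genes were among the groups with the widest distance. These genes encode the bulk histones of S phase, and most of their transcripts end in a stem-loop in place of a poly(A) tail, so a library of poly(A) RNA holds only the polyadenylated part of their output; the labels say that mRNA was purified, without naming poly(A) selection. Their near-identical coding sequences also make the split of reads between copies uncertain. Of 30 in the list, 20 reached a mean of 1 FPKM, 17 were above 0 and 13 were at least 1 log2 higher with SAHA than with VPA (53.6% and 6.57% of all genes), with a median of 1.64 ± 0.22. Against DMSO the medians were 1.49 for SAHA and 0.02 for VPA.

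The linker histone gene HIST1H1C had 882 FPKM with SAHA, 229 FPKM with VPA and 217 FPKM with DMSO, and 66.6 to 313 FPKM with the other compounds (1.94 ± 0.50). HIST1H2BK had 1024 FPKM with SAHA, 315 FPKM with VPA and 346 FPKM with DMSO, and 75.3 to 449 FPKM with the others (1.70 ± 0.38). HIST1H2BC had 127 FPKM with SAHA, 12.3 FPKM with VPA and 8.88 FPKM with DMSO, and 3.98 to 27.0 FPKM with the others (3.27 ± 0.46). In each of these genes SAHA lay above all 9 other libraries and VPA inside their range. HIST1H2BJ had 98.8 FPKM with SAHA, 15.7 FPKM with VPA and 34.1 FPKM with DMSO (2.58 ± 0.28), and here VPA was below DMSO by 1.07. HIST1H1E (2.64), HIST1H3H (2.14), HIST1H4H (1.86) and HIST2H2BE (1.58) were also past 1 log2. HIST1H3H reached the mean of 1 FPKM only through its SAHA value, and the list's counts and median include this gene. HIST1H2BD was at 0.94, and HIST1H4C (-0.79), HIST1H2BF (-0.54) and HIST1H4E (-0.47) were lower with SAHA.

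H2B promoters classically carry the octamer ATTTGCAT, bound by OCT1. Of the 7 H2B genes measured, 5 could be matched to a RefSeq promoter window (the first where a gene had several; GRCh38.p14, 250 bases before to 50 after the gene start, while the deposited values rest on hg19), and 3 of these 5 held the octamer on either strand, against 1.77% of 35116 windows. HIST1H2BD and HIST1H2BN held no match in theirs. The 3 windows are shown, 5′ to 3′ on the strand of the gene, because these genes were all past 1 log2, with the octamer in capitals. They are HIST1H2BJ at chr6:27132746-27133045 (minus strand), HIST1H2BK at chr6:27146809-27147108 (minus strand) and HIST2H2BE at chr1:149886633-149886932 (minus strand).
HIST1H2BJ: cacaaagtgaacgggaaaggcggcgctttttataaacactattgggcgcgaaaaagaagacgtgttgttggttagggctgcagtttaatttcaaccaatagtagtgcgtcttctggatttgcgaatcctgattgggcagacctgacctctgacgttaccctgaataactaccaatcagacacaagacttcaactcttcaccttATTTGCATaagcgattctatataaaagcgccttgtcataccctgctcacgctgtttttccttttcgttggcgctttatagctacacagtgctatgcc
HIST1H2BK: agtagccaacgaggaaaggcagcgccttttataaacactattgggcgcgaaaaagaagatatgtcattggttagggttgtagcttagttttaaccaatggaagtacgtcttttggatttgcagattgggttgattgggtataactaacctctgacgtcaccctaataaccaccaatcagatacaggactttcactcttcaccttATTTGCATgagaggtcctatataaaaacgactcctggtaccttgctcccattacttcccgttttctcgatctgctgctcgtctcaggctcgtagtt
HIST2H2BE: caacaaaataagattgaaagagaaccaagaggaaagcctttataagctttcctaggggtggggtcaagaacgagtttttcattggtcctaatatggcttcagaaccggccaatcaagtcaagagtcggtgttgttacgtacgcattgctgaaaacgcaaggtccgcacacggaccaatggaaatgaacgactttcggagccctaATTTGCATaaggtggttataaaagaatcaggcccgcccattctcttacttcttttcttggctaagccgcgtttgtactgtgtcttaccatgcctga
In all 3 the octamer stands shortly before the start of the gene. A match in letters does not show binding.

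Among linker and replacement histones, which are made outside S phase, 1 of 11 was past 1 log2 in each direction. Over all genes, 6.57% were that much higher and 4.73% that much lower. H2AFJ had 15.1 FPKM with SAHA, 6.44 FPKM with VPA and 3.40 FPKM with DMSO (1.11 ± 0.46). H2AFY2, which encodes macroH2A2, had 1.10 FPKM with SAHA, 15.1 FPKM with VPA and 10.8 FPKM with DMSO, and 5.67 to 21.9 FPKM with the other compounds (-2.94 ± 0.35). SAHA was the only one of the 10 libraries under 5 FPKM for H2AFY2.

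Metallothioneins, small cysteine-rich proteins that bind zinc and copper and are induced through the metal-sensing factor MTF1, were higher with SAHA than with VPA in each gene listed above 0 among those measured. Of 10 genes, 6 reached a mean of 1 FPKM, 4 were at least 1 log2 higher (6.57% of all genes), and MT1B and MT1H were listed at 0 in both libraries. Of the 4 genes under that mean, MT1A was listed at 0 with SAHA and at 1.42 FPKM with VPA, and MT1F, MT1L and MT1M at 0 in both. MT2A had 6448 FPKM with SAHA, 1939.8 FPKM with VPA and 982 FPKM with DMSO, and 494 to 16504 FPKM (median 2596) with the other compounds (1.73 ± 0.19). MT1X had 542 FPKM with SAHA, 64.2 FPKM with VPA and 78.9 FPKM with DMSO, and 13.4 to 3700 FPKM with the others (3.06 ± 0.58). MT1E had 2150 FPKM with SAHA, 580.4 FPKM with VPA and 548 FPKM with DMSO (1.89 ± 0.29). MT1G was listed at 1.90 FPKM with SAHA and at 0 with VPA and DMSO. VPA lay above DMSO for MT2A, by 0.98, and near it for MT1E and MT1X. SAHA was the highest of the 10 libraries for none of the 6, so the distance between SAHA and VPA lies inside the range that other compounds of the panel span. These genes are near-identical copies, and their levels relative to each other are uncertain.

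The windows of MT1X and MT2A are shown because these genes carry the metallothionein difference. Capitals mark the core of the metal response element (TGCACNC or TGCGCNC, either strand, overlapping matches counted by their starts). MT1X holds 4 matches and MT2A 8, against at least 4 in 0.601% and at least 6 in 0.074% of 35116 windows. Of the 6 genes measured, 4 had a window, and all 4 held at least 1 match, against 29.6% of windows. MT1X lies at chr16:56682220-56682519 (plus strand) and MT2A at chr16:56608334-56608633 (plus strand).
MT1X: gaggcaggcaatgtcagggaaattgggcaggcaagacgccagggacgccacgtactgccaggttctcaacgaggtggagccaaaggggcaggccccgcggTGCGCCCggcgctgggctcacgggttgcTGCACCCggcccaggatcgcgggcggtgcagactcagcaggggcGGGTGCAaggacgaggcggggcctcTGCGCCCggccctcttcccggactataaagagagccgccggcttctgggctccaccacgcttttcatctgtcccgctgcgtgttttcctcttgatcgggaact
MT2A: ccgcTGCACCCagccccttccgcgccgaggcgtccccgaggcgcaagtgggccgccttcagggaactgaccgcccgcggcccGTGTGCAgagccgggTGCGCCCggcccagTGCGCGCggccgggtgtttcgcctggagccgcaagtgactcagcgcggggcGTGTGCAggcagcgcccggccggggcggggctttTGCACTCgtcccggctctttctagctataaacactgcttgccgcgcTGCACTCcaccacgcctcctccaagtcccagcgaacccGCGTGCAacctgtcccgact
MT1H and MT1B, listed at 0 with both compounds, held 8 and 3 matches in the same window.

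Neuronal genes under REST were higher with SAHA than with VPA. Of 24 genes of the list, 12 reached a mean of 1 FPKM, 11 of these were above 0 and 6 at least 1 log2 higher (53.6% and 6.57% of all genes), with a median of 1.02 ± 0.20. Against DMSO the medians were 1.07 for SAHA and 0.38 for VPA. Synaptophysin (SYP), a membrane protein of synaptic vesicles, had 26.7 FPKM with SAHA, 1.53 FPKM with VPA and 0.513 FPKM with DMSO, and 0.640 to 5.75 FPKM with the other compounds (3.45 ± 0.49). The neurofilament light chain NEFL had 98.7 FPKM with SAHA, 20.1 FPKM with VPA and 31.0 FPKM with DMSO, and 19.9 to 68.0 FPKM with the others (2.24 ± 0.22). Synapsin 1 (SYN1) had 4.53 FPKM with SAHA, 0.247 FPKM with VPA and 0.445 FPKM with DMSO (2.15 ± 0.27). SYN1 reached the mean of 1 FPKM only through its SAHA value, so the filter favoured its difference above 0. The list's counts and median include this gene. In all 3 genes SAHA was above the 9 other libraries. The secreted peptide precursor VGF (1.11) and the adhesion molecule L1CAM (1.18) were past 1 log2 as well, and BEX1 (-0.30) was the 1 member below 0. Of the members under a mean of 1 FPKM, STMN4 was listed at 2.33, 0 and 0 FPKM with SAHA, VPA and DMSO, GAP43 at 2.72, 0.16 and 0.18 FPKM, and NEFM at 1.98, 0.11 and 0.12 FPKM. SCG3 and CHGA were lower with SAHA than with VPA, at 0 against 0.24 FPKM and 0.118 against 0.173 FPKM. SYT4 and UCHL1 were listed at 0 in both libraries, and the remaining members (STMN2, SCG2, CELF4, SCN3B and CPLX2) stayed under 1 FPKM in both.

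Cytoskeletal genes split by isoform. In the list of tubulins and actin-severing proteins, 14 of 16 reached a mean of 1 FPKM. Of these, 4 were at least 1 log2 higher with SAHA (6.57% of all genes), and the median was 0.21 ± 0.32. TUBA4A, an alpha-tubulin isoform, had 42.1 FPKM with SAHA, 5.06 FPKM with VPA and 8.91 FPKM with DMSO (2.83 ± 0.57), and TUBB2A was at 1.39. TUBA1B, a widely expressed alpha-tubulin, was at -0.94. TUBB4A, a neuronal beta-tubulin outside the list, had 62.9 FPKM with SAHA, 4.77 FPKM with VPA and 7.65 FPKM with DMSO, and 1.76 to 10.8 FPKM with the other compounds (3.47 ± 0.28). This was the third largest difference above 0 among genes at 5 FPKM or more in either library, small RNA and clone rows passed over.

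Other genes had the widest gaps between SAHA and the rest of the panel. ABCG4, a sterol transporter, had 8.97 FPKM with SAHA, 0.359 FPKM with VPA and 0.314 FPKM with DMSO, and 0.108 to 0.397 FPKM with the other compounds (2.87 ± 0.18). Among genes of 5 FPKM or more in either library, small RNA and clone rows passed over, ABCG4 had the widest gap between SAHA and the next library, 2.84 log2. ABCG4 passed the mean of 1 FPKM and the limit of 5 FPKM only through its SAHA value. Its place here is therefore partly set by the filters. REEP6, a protein of the endoplasmic reticulum, had the next widest gap, with 34.0 FPKM with SAHA, 5.00 FPKM with VPA and 1.89 FPKM with DMSO (2.54 ± 0.41). Here VPA was above DMSO too, by 1.06.

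The calcium buffer calbindin (CALB1) had 10.1 FPKM with SAHA and was listed at 0 with VPA and DMSO, but its error was 1.46 and another compound reached 8 FPKM. ENPP2, which encodes autotaxin, the enzyme that makes lysophosphatidic acid, had 12.4 FPKM with SAHA, 0.629 FPKM with VPA and 1.31 FPKM with DMSO (3.04 ± 0.36). AKR1C3, an aldo-keto reductase of steroid metabolism, had 12.5 FPKM with SAHA, 0.473 FPKM with VPA and 1.12 FPKM with DMSO (3.20 ± 0.47). The ephrin EFNA3 (2.98), the phosphatase PPM1J (2.96), the dehydrogenase DHDH (2.96), the glycogen-targeting subunit PPP1R3C (2.90) and the co-chaperone DNAJC12 (2.87) were also among the 15 largest, as was COMMD3-BMI1, a readthrough row that overlaps other genes and is uncertain (3.57 ± 1.39). ENPP2, DHDH and DNAJC12 reached the mean of 1 FPKM only through their SAHA values, so the filter favoured their place among these genes.

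**Figure D4:**
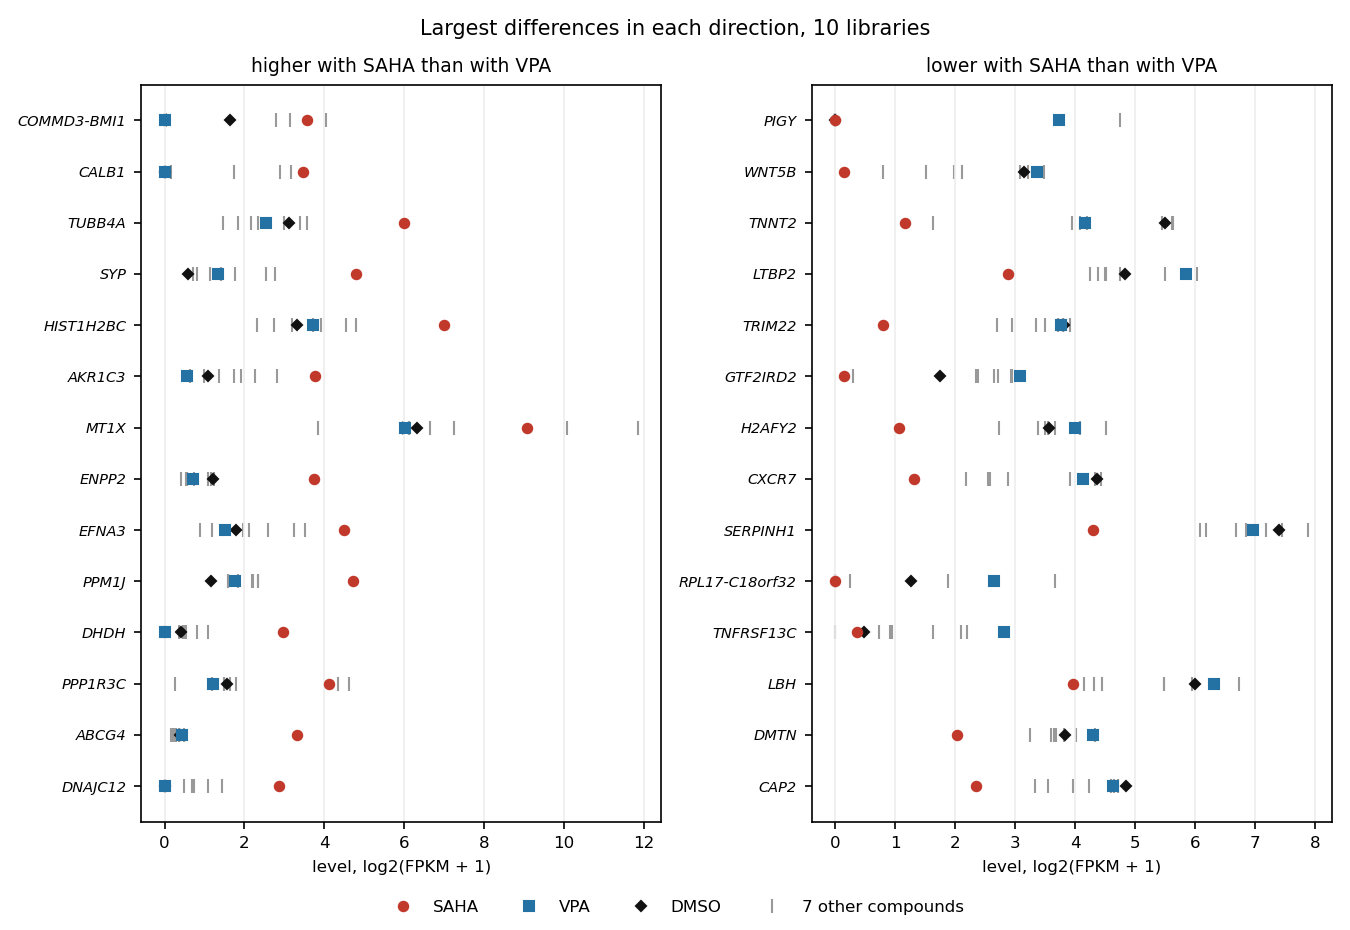
Level in log2(FPKM + 1) of genes with the largest differences in each direction, with SAHA, VPA and DMSO as symbols and the other 7 compounds as ticks. For most genes of both panels VPA lies near DMSO and SAHA apart from both; TNFRSF13C, at 0.288 FPKM with SAHA and 6.02 FPKM with VPA, shows the opposite arrangement.

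Among the largest differences below 0, the secreted signalling gene WNT5B had 0.109 FPKM with SAHA, 9.29 FPKM with VPA and 7.91 FPKM with DMSO (-3.21 ± 0.41). SERPINH1, the collagen chaperone HSP47, had 18.6 FPKM with SAHA, 125 FPKM with VPA and 169 FPKM with DMSO, and 67.1 to 237 FPKM with the other compounds (-2.68 ± 0.52). In both genes VPA lay inside the range of the other libraries and SAHA below it.

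TRIM22, an interferon-induced ubiquitin ligase, had 0.729 FPKM with SAHA, 12.6 FPKM with VPA and 13.1 FPKM with DMSO (-2.98 ± 0.51), and NMI, a partner of MYC and STAT proteins, had 2.86 FPKM with SAHA, 16.1 FPKM with VPA and 14.6 FPKM with DMSO (-2.15 ± 0.22). TNNT2, the cardiac troponin T, had 1.25 FPKM with SAHA, 17.0 FPKM with VPA and 44.2 FPKM with DMSO (-3.00 ± 0.72), so that VPA too was below DMSO, by 1.33. LTBP2, a matrix protein, had 6.33 FPKM with SAHA, 56.9 FPKM with VPA and 27.5 FPKM with DMSO (-2.98 ± 0.51), with DMSO between the compounds. The chemokine receptor gene CXCR7 (-2.82, with no error), LBH (-2.37 ± 0.98), the actin-binding proteins DMTN (-2.28 ± 0.60) and CAP2 (-2.27 ± 0.44), TRIML2 (-1.61 ± 0.68) and GTF2IRD2 (-2.95 ± 0.85) followed. GTF2IRD2 has near-identical copies and is uncertain. PIGY was listed at 12.3 FPKM with VPA and at 0 with SAHA and DMSO, and RPL17-C18orf32 is a readthrough row at 0 with SAHA, so both are uncertain.

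Of 19 genes that respond to YAP or TGF-beta or encode matrix proteins, 14 were below 0 and 3 at least 1 log2 lower with SAHA than with VPA (45.6% and 4.73% of all genes), with a median of -0.39 ± 0.27. Against DMSO the medians were -0.03 for SAHA and 0.35 for VPA. The collagen crosslinker LOX had 4.27 FPKM with SAHA, 17.0 FPKM with VPA and 13.1 FPKM with DMSO (-1.77 ± 0.29). TAGLN, an actin-bundling protein, had 49.1 FPKM with SAHA, 150.2 FPKM with VPA and 93.5 FPKM with DMSO (-1.59 ± 0.56), and thrombospondin 1 (THBS1) was at -1.07 ± 0.80. ANKRD1, a YAP target, went the other way at 278 FPKM with SAHA, 86.3 FPKM with VPA and 86.9 FPKM with DMSO (1.67 ± 0.42).

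Of 20 targets of NF-kB and cytokines, 10 reached a mean of 1 FPKM. Of these, 8 were below 0 and 4 at least 1 log2 lower with SAHA than with VPA (45.6% and 4.73% of all genes). The median was -0.44 ± 0.40. Against DMSO the medians were 0.01 for SAHA and 0.31 for VPA. NFKB1 had 4.16 FPKM with SAHA, 13.5 FPKM with VPA and 11.1 FPKM with DMSO (-1.49 ± 0.27). The cytokine genes LIF (-1.80 ± 0.88) and CSF1 (-1.43 ± 0.54) were low with SAHA and near DMSO with VPA. RELB had 2.73 FPKM with SAHA, 11.3 FPKM with VPA and 1.96 FPKM with DMSO (-1.72 ± 0.46), so that VPA was 2.05 above DMSO.

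Few genes of the acetylation machinery itself were past 1 log2 between the compounds. Among 17 deacetylases and sirtuins the median was 0.25 ± 0.20, with 1 past 1 log2 (11.3% of all genes in either direction). Against DMSO the medians were alike, 0.30 for SAHA and 0.36 for VPA. HDAC1 had 98.8 FPKM with SAHA, 74.3 FPKM with VPA and 80.1 FPKM with DMSO (0.41 ± 0.29), HDAC2 was at 0.73 ± 0.28, HDAC3 at 0.70 ± 0.27 and HDAC8 at 0.39 ± 0.11, so all 4 class I genes were above 0. The class II genes measured were below 0, with HDAC7 at -0.86 ± 0.45 (28.8 FPKM with SAHA, 53.3 FPKM with VPA and 41.3 FPKM with DMSO). HDAC9 was at -0.57 ± 0.07, HDAC10 at -0.46 ± 0.49, HDAC5 at -0.39 ± 0.67 and HDAC6 at -0.34 ± 0.38. The class IV gene HDAC11 was at 0.25 ± 0.36, and HDAC4 was under a mean of 1 FPKM. The differences of HDAC10, HDAC5, HDAC6 and HDAC11 lay within their errors. HDAC5 was above DMSO with both compounds, by 0.96 with SAHA and 1.35 with VPA. SIRT2, a tubulin deacetylase, had 20.7 FPKM with SAHA, 8.80 FPKM with VPA and 4.5 FPKM with DMSO (1.15 ± 0.59). SIRT7 was at 0.56, SIRT4 at 0.54, SIRT6 at 0.49, SIRT1 at 0.03, SIRT5 at -0.04 and SIRT3 at -0.41. SIRT4 would not have reached the mean of 1 FPKM without its SAHA value, so the filter favoured its difference above 0. The list's median includes this gene.

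Of 27 subunits of deacetylase complexes measured, 1 was past 1 log2 in each direction and the median was 0.07 ± 0.30. Over all genes, 6.57% were that much higher and 4.73% that much lower. SAP30, a subunit of the SIN3 complex, had 52.9 FPKM with SAHA, 14 FPKM with VPA and 13.0 FPKM with DMSO (1.85 ± 0.26). CHD3, a remodeller of the NuRD complex, had 16.6 FPKM with SAHA, 52.5 FPKM with VPA and 50.5 FPKM with DMSO (-1.60 ± 0.56). Acetyltransferases and readers of acetyl-lysine were below 0 in 16 of 20 (45.6% of all genes), with a median of -0.40 ± 0.27. Of the 20, 1 was at least 1 log2 lower, near the share over all genes (4.73%). The coactivator CREBBP had 5.80 FPKM with SAHA, 15.4 FPKM with VPA and 12.5 FPKM with DMSO, and 10.3 to 30.1 FPKM with the other compounds (-1.27 ± 0.38). SAHA was the lowest of the 10 libraries for CREBBP and for 6 of the 20 in all, against 9.54% of all genes. BRD3 (-1.0 ± 0.30, short of 1 log2 before rounding), BRD2 (-0.96 ± 0.32), KAT2B (-0.80 ± 0.28) and EP300 (-0.76) came next.

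**Figure D5:**
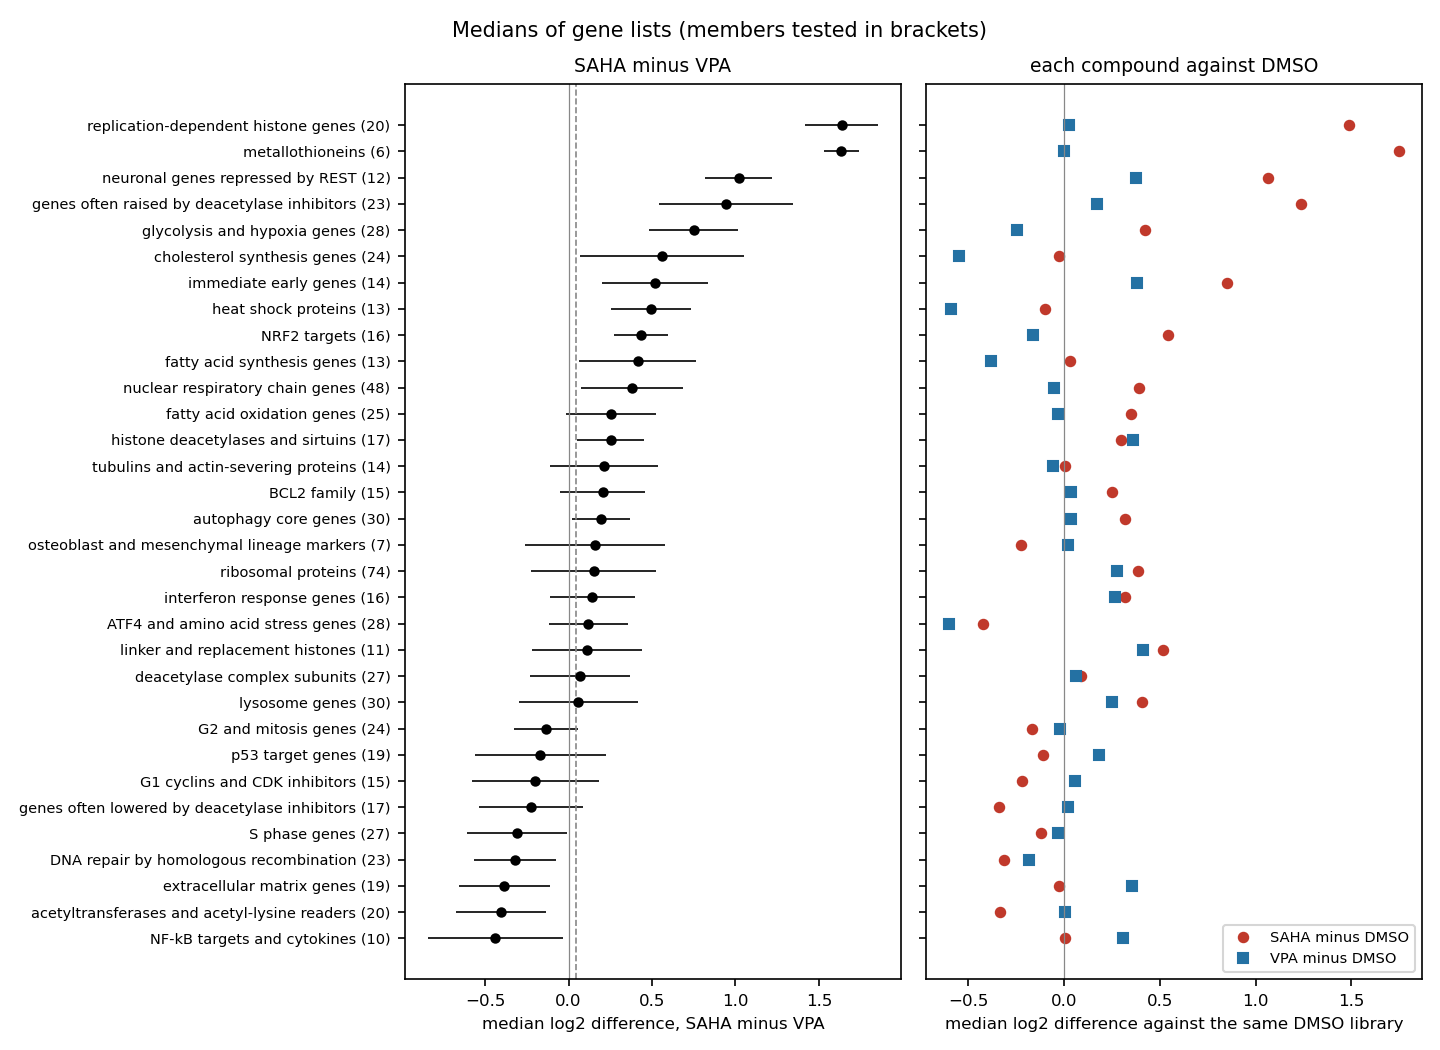
Median difference of each gene list in log2(FPKM + 1), SAHA minus VPA, with bars for its error from the replicated groups and a dashed line at the median of all genes (left), and each compound's median minus the same DMSO library (right), for lists with 5 or more measured members. Replication-dependent histones, metallothioneins, neuronal genes and the raised list stand highest, at 1.64, 1.63, 1.02 and 0.94.

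In the lists of glycolysis, cholesterol synthesis and fatty acid synthesis, the VPA median lay below DMSO, by amounts within or little past the lists' errors. The SAHA median lay above DMSO for glycolysis and near it for the others. Of 28 genes of glycolysis and hypoxia, 27 were above 0 and 5 at least 1 log2 higher with SAHA than with VPA. The shares over all genes were 53.6% and 6.57%. The list's median was 0.75 ± 0.26. Against DMSO the medians were 0.42 for SAHA and -0.24 for VPA, the latter within the list's error. Hexokinase 1 (HK1) had 90.6 FPKM with SAHA, 38.0 FPKM with VPA and 54.6 FPKM with DMSO (1.23 ± 0.27). The oxygen sensor EGLN3 (1.43 ± 0.55) and PFKFB4 (1.05 ± 0.33), which makes the activator of phosphofructokinase, were past 1 log2, as were ENO2 and BNIP3 (1.02), a mitophagy receptor induced in hypoxia, and PFKL (-0.88) was the 1 gene below 0. SAHA was the highest of the 10 libraries in none of the 28.

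Cholesterol synthesis genes were above 0 in 20 of 24 (53.6% of all genes), with a median of 0.56 ± 0.49. Against DMSO the medians were -0.03 for SAHA and -0.55 for VPA. HMGCS1, which makes the precursor of mevalonate, had 34.2 FPKM with SAHA, 18.3 FPKM with VPA and 35.8 FPKM with DMSO (0.87 ± 0.46), and LSS (0.95 ± 0.64) and DHCR7 (0.93 ± 0.88) had wider errors. The exception past 1 log2, the sterol reductase TM7SF2, was at -1.13 ± 0.75. Of 13 fatty acid synthesis genes, 3 were at least 1 log2 higher with SAHA, against 6.57% of all genes (median 0.41 ± 0.35). Their medians against DMSO were 0.03 for SAHA and -0.38 for VPA. The desaturase SCD had 65.0 FPKM with SAHA, 23.1 FPKM with VPA and 57.2 FPKM with DMSO, with a wide error (1.45 ± 0.86), SREBF1, the factor that drives these genes, was at 1.07 ± 0.57, and ACSL3 at 1.01 ± 0.28. Heat shock genes were above 0 in 10 of 13, against 53.6% of all genes (median 0.49 ± 0.24). The heat shock medians against DMSO were -0.10 for SAHA and -0.59 for VPA. The chaperone HSPA4 had 118 FPKM with SAHA, 67.7 FPKM with VPA and 105 FPKM with DMSO (0.79 ± 0.26), HSPE1 was at 0.69 and HSP90AA1 at 0.60.

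Nuclear genes of the respiratory chain were above 0 in 45 of 48, against 53.6% of all genes, by small amounts, with a median of 0.38 ± 0.30. That median was 0.23 after TPM scaling and 0.20 after quantile normalization, and 3 of 48 past 1 log2 is about the share over all genes (6.57%). ATP5D, a subunit of ATP synthase, had 128 FPKM with SAHA, 41.8 FPKM with VPA and 44.5 FPKM with DMSO (1.59 ± 0.61), NDUFB10 was at 1.18 and NDUFB3 at 1.00. SAHA was the highest of the 10 libraries in 31 of the 48, against 18.4% of all genes. The SAHA library was also the deepest, at 1.23 relative to DMSO, while VPA, at 1.11, was the highest library in 0 of the 48. The part of depth in such ranks was not tested. Ribosomal protein genes were above 0 in 52 of 74 and SAHA was the highest library in 33 of 74, but their median of 0.15 ± 0.37 became -0.04 after quantile normalization, and 0 of 74 were past 1 log2.

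Cell cycle genes were slightly below 0 with SAHA against VPA. The medians were -0.31 ± 0.30 over 27 S phase genes, -0.14 ± 0.19 over 24 genes of G2 and mitosis, -0.20 ± 0.38 over 15 G1 cyclins and CDK inhibitors and -0.32 ± 0.24 over 23 genes of homologous recombination. The scaling moved these values: after TPM scaling the S phase median was -0.47 and that of G2 and mitosis -0.29, and after quantile normalization they were -0.37 and -0.28. Before rescaling, the medians of G2 and mitosis genes and of the G1 list lay within their errors. Of the S phase genes 9 were above 0 and 18 below, with POLE2 (0.54) the highest. Of G2 and mitosis genes 7 were above 0 and 17 below, with CDC20 (0.72) the highest. Against DMSO the S phase medians were -0.12 for SAHA and -0.03 for VPA. Besides TYMS, the uracil glycosylase UNG was past 1 log2, with 14.7 FPKM with SAHA, 36.7 FPKM with VPA and 37.5 FPKM with DMSO (-1.26 ± 0.34), and MCM5 was at -0.84 and MCM7 at -0.69. The D-type cyclins diverged, with CCND1 lower and CCND3 higher, at 47.0 FPKM with SAHA, 22.1 FPKM with VPA and 21.2 FPKM with DMSO (1.06 ± 0.24). Cyclin E2 (CCNE2) was at -1.01 ± 0.42 and CDKN2C, the p18 inhibitor, at -0.82 ± 0.36. The kinetochore motor CENPE had 12.9 FPKM with SAHA, 33.1 FPKM with VPA and 15.9 FPKM with DMSO (-1.29 ± 0.52), here with VPA apart from DMSO. RAD51AP1 (-0.88 ± 0.47), PALB2 (-0.80 ± 0.45) and RAD51D (-0.74 ± 0.34) headed the repair genes.

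Of 19 targets of p53, 12 were below 0 and 1 was at least 1 log2 lower with SAHA (45.6% and 4.73% of all genes). The quinone reductase TP53I3 was that gene, with 31.0 FPKM with SAHA, 89.0 FPKM with VPA and 56.8 FPKM with DMSO (-1.49 ± 0.45). XPC (-0.66), MDM2 (-0.57) and BTG2 (-0.53) were next, and the list's median of -0.17 ± 0.39 lay within its error. In the BCL2 family, 2 of 15 were at least 1 log2 higher with SAHA (6.57% of all genes), both with pro-apoptotic products. Of the 15, 10 were above 0 and 5 below 0. Those below 0 included other pro-apoptotic members, BOK (-0.68), BID (-0.38) and BAX (-0.30). PMAIP1, which encodes NOXA, had 47.2 FPKM with SAHA, 20.2 FPKM with VPA and 27.4 FPKM with DMSO, and 16.3 to 181 FPKM with the other compounds (1.19 ± 0.40). BAD had 66.1 FPKM with SAHA, 32.2 FPKM with VPA and 35.6 FPKM with DMSO (1.01 ± 0.32), with the list's median at 0.20 ± 0.25.

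Autophagy is named in the title of the series. Of 30 core autophagy genes, 2 were at least 1 log2 higher with SAHA and 1 lower, near the shares over all genes (6.57% and 4.73%), with a median of 0.19 ± 0.17. WDR45, the phosphoinositide binder WIPI4, had 16.4 FPKM with SAHA, 37.8 FPKM with VPA and 15.3 FPKM with DMSO (-1.16 ± 0.43), within the 14.9 to 49.9 FPKM of the other compounds. MAP1LC3B, which encodes the autophagosome marker LC3B, had 89.0 FPKM with SAHA, 41.3 FPKM with VPA and 40.0 FPKM with DMSO (1.09 ± 0.30). The protease ATG4A had 3.71 FPKM with SAHA, 1.20 FPKM with VPA and 2.11 FPKM with DMSO (1.10 ± 0.35). Of 30 lysosome genes, with a median of 0.06 ± 0.36, the lipid hydrolases LIPA (26.8 FPKM with SAHA, 7.36 FPKM with VPA and 6.92 FPKM with DMSO, 1.73 ± 0.36) and ASAH1 (1.25 ± 0.35) were at least 1 log2 higher. The protease CTSZ was the 1 gene at least 1 log2 lower, at 69.6 FPKM with SAHA, 155 FPKM with VPA and 112 FPKM with DMSO (-1.14). Both counts of lysosome genes were near the shares over all genes (6.57% and 4.73%). Stress genes under ATF4 had a median of 0.12 ± 0.24, but both compounds lay below DMSO, by medians of -0.42 for SAHA and -0.60 for VPA. Of these 28 genes, DDIT4, an inhibitor of mTOR signalling, had 16.6 FPKM with SAHA, 4.5 FPKM with VPA and 18.1 FPKM with DMSO (1.67 ± 0.48), and the factor ATF5 had 12.0 FPKM with SAHA, 34.0 FPKM with VPA and 38.3 FPKM with DMSO (-1.43 ± 0.16). NUPR1 (-1.41) and the cysteine-synthesis enzyme CTH (1.23) were the other 2 past 1 log2. The counts of 2 of 28 in each direction were also near the shares over all genes (6.57% higher and 4.73% lower).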

How the data were processed

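The deposited tables held FPKM per gene, computed by the authors. The submitters' processing notes name FastQC, cutadapt, TopHat2 and the hg19 build, without versions. Neither the program behind FPKM nor its annotation is given in the sources used here, and the same holds for strand, which leaves genes with antisense, overlapping or near-identical partners uncertain. Per the labels' protocols, mRNA was purified with a NEBNext module before library construction by ThruPLEX.

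The replicate 1 table (28502 rows, 10 libraries) was used for every difference. The replicate 2 table (4 libraries) entered only the errors. A row named unknown was left out, and 0 columns were unused. Values were log2(FPKM + 1) for the 12804 genes averaging 1 FPKM or more in that table, with SAHA and VPA part of the average. The error is the residual SD after group and table effects in the 4 replicated groups, times the square root of 2; for a list it was computed on the list's median. Depth relative to DMSO came from ratios of low FPKM values, since the deposited FPKM hold no counts, so no counting interval can be given.

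The members and the 34 gene lists were chosen with earlier results of these data known. Genes were named by a rule: the 15 largest differences per direction among genes of at least 5 FPKM in either library (small RNA and clone rows passed over), all measured members of the raised, lowered and deacetylase lists, up to 4 leading members of lists shifted by 0.2 or more, up to 2 members past 1 log2 of each list, and the 6 widest gaps per compound and direction. A few genes picked by it are left out of the text and plots and not reported here. Other list members are not given in the prose, for length, and those of other rank that are given were chosen after their values were seen. Alternatives were TPM scaling, quantile normalization, median centring, pseudocounts of 0.1 and 5, no filter, a filter at 5 FPKM and leaving out small RNA and clone rows. The scripts were tested on simulated data and run with Python 3.11.15, numpy 2.4.6, pandas 2.3.3 and matplotlib 3.10.9.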

Additional observations from a re-analysis of the deposited data

How the results depend on the processing

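The counts of genes past 1 log2 followed the settings that act on low values. The 841 genes higher and 606 lower with SAHA became 1195 and 948 with a pseudocount of 0.1, 317 and 183 with a pseudocount of 5, 422 and 357 with a mean of at least 5 FPKM, and 764 and 1000 after TPM scaling. Without a filter they were 1074 and 701, after median centring 782 and 652, after quantile normalization 748 and 705 (51.5% higher), and without small RNA and clone rows 707 and 489. No named gene past 1 log2 and no list with a shift of 0.2 or more changed sign under these settings. For genes this was largely fixed in advance and lends no support. Pseudocounts, filters and leaving out rows cannot change the sign of a gene's difference. The 3 scalings moved the median of all genes by -0.13 to -0.03, little beside 1 log2. Of 108 named genes past 1 log2, 81 stayed past it with a pseudocount of 5, 105 after centring, 99 after quantile normalization and 100 after TPM scaling. The median of the raised list ran from 0.75 to 0.94 and that of the lowered list from -0.38 to -0.23 over the scalings. Without the 2-PCPA library, chosen after seeing the data, SAHA was the lowest library for 14.1% of genes in place of 9.54% and the highest for 18.5% in place of 18.4%, and VPA the lowest for 5.51% in place of 3.19% and the highest for 6.05% in place of 5.98%. No paired analysis was possible because SAHA and VPA have 1 library each, both numbered replicate 1, and for the same reason neither library could be left out. The errors come from other treatments with 3 degrees of freedom, and their median was 0.23 without 2-PCPA and 0.24 after centring. The limits of the comparison are thus 1 library per compound, unequal doses and unknown absolute depth.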

Other observations

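Where VPA stood apart from all 9 other libraries, the gaps to the next library were small (genes of at least 5 FPKM with SAHA or VPA, small RNA and clone rows passed over). The widest gap above was that of SLC24A5, a cation exchanger of pigment cells, with 12.2 FPKM with SAHA, 22.2 FPKM with VPA and 4.86 FPKM with DMSO, 0.81 log2 above the next library. COQ4, needed for ubiquinone synthesis, had 10.6 FPKM with SAHA, 21.3 FPKM with VPA and 8.60 FPKM with DMSO (gap 0.79), and ATP6V1E2, a proton pump subunit, had 4.88 FPKM with SAHA, 11.3 FPKM with VPA and 3.47 FPKM with DMSO (gap 0.71). CLYBL, TNFRSF13C and IFT122 had gaps of 0.62, 0.61 and 0.59. On the low side the palmitoyltransferase gene ZDHHC14 had 5.67 FPKM with SAHA, 1.83 FPKM with VPA and 4.36 FPKM with DMSO (gap 0.86), followed by the repressor KLF12 (0.55), MTERF (0.52), GUSBP1 (0.47) and MRPS6 (0.46). Among genes under the same limits, the widest gaps of SAHA were 2.84 above (ABCG4) and 1.92 below (TRIM22) the next library. ABCG4 passed the filters only through its SAHA value.

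Valproate is itself a fatty acid that is broken down in mitochondria. Of 25 measured genes of fatty acid oxidation and valproate metabolism, 19 were above 0, 4 at least 1 log2 higher and 2 at least 1 log2 lower with SAHA than with VPA (53.6%, 6.57% and 4.73% of all genes). The median of 0.25 ± 0.27 lay within its error and was 0.12 after TPM scaling. ABAT, the GABA transaminase, had 11.5 FPKM with SAHA, 2.88 FPKM with VPA and 2.71 FPKM with DMSO (1.69 ± 0.38). ETFDH (1.56 ± 0.26), ECI2 (1.29 ± 0.44) and ACADSB (1.03 ± 0.16) were past 1 log2 too. CPT1B, the muscle form of the carnitine transferase, had 1.26 FPKM with SAHA, 5.92 FPKM with VPA and 1.74 FPKM with DMSO (-1.61 ± 0.50), and ALDH5A1, which acts after ABAT in GABA breakdown, was at -1.02. Among 16 targets of NRF2, 4 were at least 1 log2 higher with SAHA (6.57% of all genes). They were AKR1C3, HMOX1 (1.23 ± 0.84), the sulfiredoxin SRXN1 (1.14 ± 0.15) and TALDO1 (1.04 ± 0.27). Heme oxygenase (HMOX1) had 30.1 FPKM with SAHA, 12.3 FPKM with VPA and 15.0 FPKM with DMSO, against 16.7 to 914 FPKM with the other compounds. Of 14 immediate early genes, 2 were at least 1 log2 higher with SAHA, against 6.57% of all genes. They were FOS (1.16 ± 0.35) and IER2 (1.13 ± 0.41), and both compounds lay above DMSO for both genes. Of 16 interferon response genes, 2 were at least 1 log2 higher and 1 at least 1 log2 lower (6.57% and 4.73% of all genes). The list's median of 0.14 ± 0.26 lay within its error. IFI6 had 70.8 FPKM with SAHA, 29.3 FPKM with VPA and 18.6 FPKM with DMSO (1.24 ± 0.28), and IFI27 was at 1.09. The antiviral synthetase OAS3 went the other way at 2.00 FPKM with SAHA, 6.65 FPKM with VPA and 3.84 FPKM with DMSO (-1.35 ± 0.22). Claudin 4 (CLDN4), a tight junction protein, had 12.0 FPKM with SAHA, 2.40 FPKM with VPA and 1.62 FPKM with DMSO (1.93 ± 0.81), while the keratins KRT8 and KRT18 were at 0.55 and 0.40.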
